A study of Homo sapiens with 8 samples.

Results

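The response to doxorubicin was followed in HCT116, a human line established from a colon carcinoma, on Illumina HumanHT-12 v3 BeadChip arrays, which read each transcript through short probes on beads. It is held by 4 of the 8 arrays of the series, chosen by their labels and by no measured value. Replicates 2 and 4 came from cells given a non-targeting control siRNA and then 0.5 µM doxorubicin for 24 hours, and are called doxorubicin arrays 2 and 4 here. Replicates 1 and 3 came from cells given the same control siRNA and no doxorubicin, and are called untreated arrays 1 and 3. The siRNA had been in the cells for 48 hours when the drug was added, and both groups carried it. The other 4 arrays hold the same treatments after the knockdown siRNA for TAF3, which belongs to the TFIID complex of general transcription, and serve here for the estimate of the spread and for a test of the difference between the responses. Labelling began with 200 ng of total RNA and oligo(dT) priming, which favours polyadenylated RNA. The comparison asks which genes a cell with an intact general transcription machinery turns up and down after DNA damage, in a single line at a single dose and time.

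Doxorubicin slides between the bases of DNA and traps topoisomerase II on it, so that broken strands remain, and it can also push histones off chromatin. Kinases that sense the breaks stabilise p53, a transcription factor, which raises genes that hold the cell cycle, start cell death, repair DNA and change metabolism. Among these is CDKN1A, the inhibitor of cyclin-dependent kinases through which p53 also lowers many genes of mitosis.

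The signals are the deposited probe intensities in arbitrary units. The 2 doxorubicin arrays correlated at r = 0.994 over the features tested and the 2 untreated arrays at 0.988, while arrays of different treatment correlated at 0.950 to 0.960. Nothing in the labels says that the replicates were separate cultures, so a p-value weighs a change against the scatter of these arrays alone, and that scatter may be technical. In bulk RNA, fewer cells of a kind and less RNA per cell cannot be told apart. An array's background threshold, above which a probe counts as detected, lay between 81.4 and 87.4 units. Doxorubicin arrays 2 and 4 had 19533 and 18034 probes above it, against 18249 and 18743 on untreated arrays 1 and 3. A gene is called higher or lower here when limma gave it an adjusted p under 0.05 in a fit to all 8 arrays. Of 9 colon epithelial markers that could be tested, EPCAM, KRT8, KRT19, CDH1 and CDX2 were far above background on all 4 arrays, but 9 others, among them CDX1, VIL1, LGR5 and MUC2, were not detected on enough arrays to be tested. Of 28 markers of blood, endothelial, fibroblast, liver, muscle and nerve cells with a probe, 18 were not detected on enough arrays, including PTPRC, CD3E, COL1A2, DCN and ALB. The other 10 summed to 1789 and 1696 units on the doxorubicin arrays, against 2067 and 2016 on the untreated arrays. Much of the untreated sum came from CD68, which reached 1089 units, so the sums do not give the direction of the set. Of the 10, 3 were called higher and 1, CD68, lower, where 9.08% and 8% of all features were, and the median log2 change was 0.23.

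Doxorubicin moved 2792 of 16348 features past the threshold, or 17.1% of those tested. Of these, 1484 (9.08%) were higher and 1308 (8%) lower with doxorubicin. The largest rises were steeper than the largest falls: 123 features rose 4-fold or more and 22 fell 4-fold or more, and 18 rose 8-fold or more while 1, the glycolytic enzyme gene ALDOC, fell as far. The median log2 change was -0.02 over all features, 0.99 over those called higher and -0.87 over those called lower. No called feature had overlapping groups, but this says little, because both doxorubicin arrays lay above both untreated arrays for 29.8% of all features and below them for 33.8%. Dim features made up few of the calls: when features were split into 4 equal classes of brightness, 2.91% of the dimmest class were called higher and 0.783% lower.

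**Figure D1:**
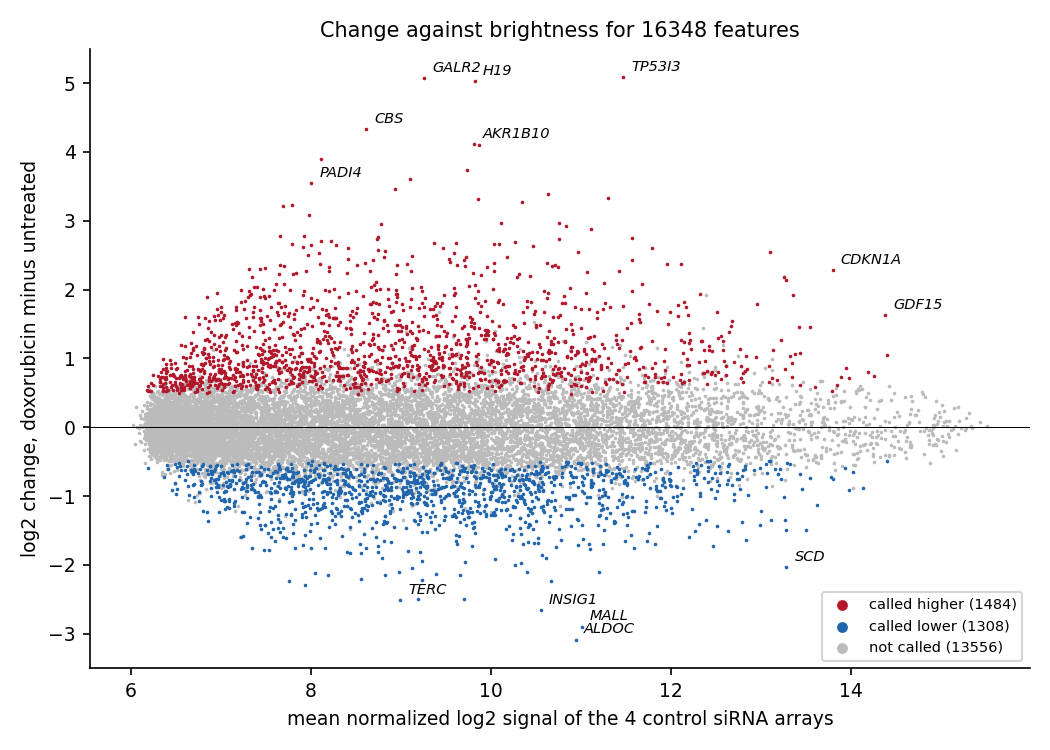
Each point is 1 of 16348 features, with its mean normalized log2 signal on the 4 control siRNA arrays across and its log2 change (doxorubicin minus untreated) up. The 1484 features called higher reach a log2 change of 5.08, and the 1308 called lower reach -3.09.

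How many features were called rested on having both arrays of each treatment. Without doxorubicin array 2 the count was 268, without doxorubicin array 4 it was 858, without untreated array 1 it was 971 and without untreated array 3 it was 1297. Every one of the 2792 kept its direction in these 4 fits, but this was fixed in advance, because no called feature had overlapping groups. Of the 2792, 254 (185 higher, 69 lower) passed no matter which of the 8 arrays was omitted. The counts of a gene list without each of these 4 arrays are given in that order in what follows. The normalization bore on the balance of the calls: 53.2% of calls were higher after quantile normalization, 63.3% after median centring and 64.2% on log2 of the deposited signals.

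**Figure D2:**
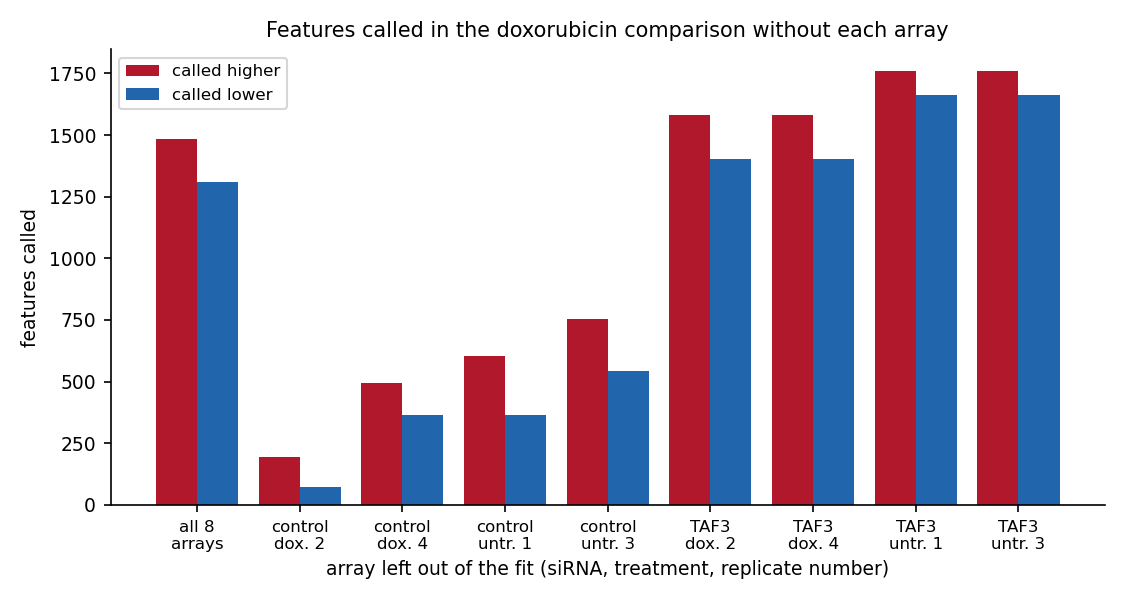
Bars give the number of features called higher and lower (limma, adjusted p under 0.05) with all 8 arrays and without each array in turn. Leaving out any of the 4 control siRNA arrays lowered both counts, to 194 higher and 74 lower without doxorubicin array 2, and leaving out a TAF3 siRNA array raised both.

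Most of the largest rises were of genes dim in untreated cells. TP53I3, a p53 target that encodes a quinone oxidoreductase, read 15812 and 16268 with doxorubicin, against 637 and 331 untreated. GALR2, a receptor for the neuropeptide galanin, read 4355 and 2885 units with doxorubicin and 102 and 98.4 untreated, and H19, an imprinted noncoding RNA, read 6086 and 4374 on the doxorubicin arrays, against 161 and 142 on the untreated arrays. Their log2 changes were 5.08 ± 0.67 (SE), 5.08 ± 0.47 (SE) and 5.03 ± 0.70 (SE). CBS, which makes cystathionine from homocysteine and serine, read 1682 and 1881 with doxorubicin, against 76.6 and 92.2 untreated; it was below background on untreated array 1, so that its log2 change of 4.33 is set against a level at background. AKR1B10, an aldo-keto reductase that reduces reactive aldehydes and the ketone of anthracyclines, read 3669 and 3869 units with doxorubicin and 229 and 185 untreated (log2 change 4.12). LAMP3, a lysosomal membrane protein, read 3790 and 4052 on the doxorubicin arrays, against 176 and 267 on the untreated arrays (log2 change 4.10). Of these 6, H19 was the exception that was not called whichever array was left out.

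**Figure D3:**
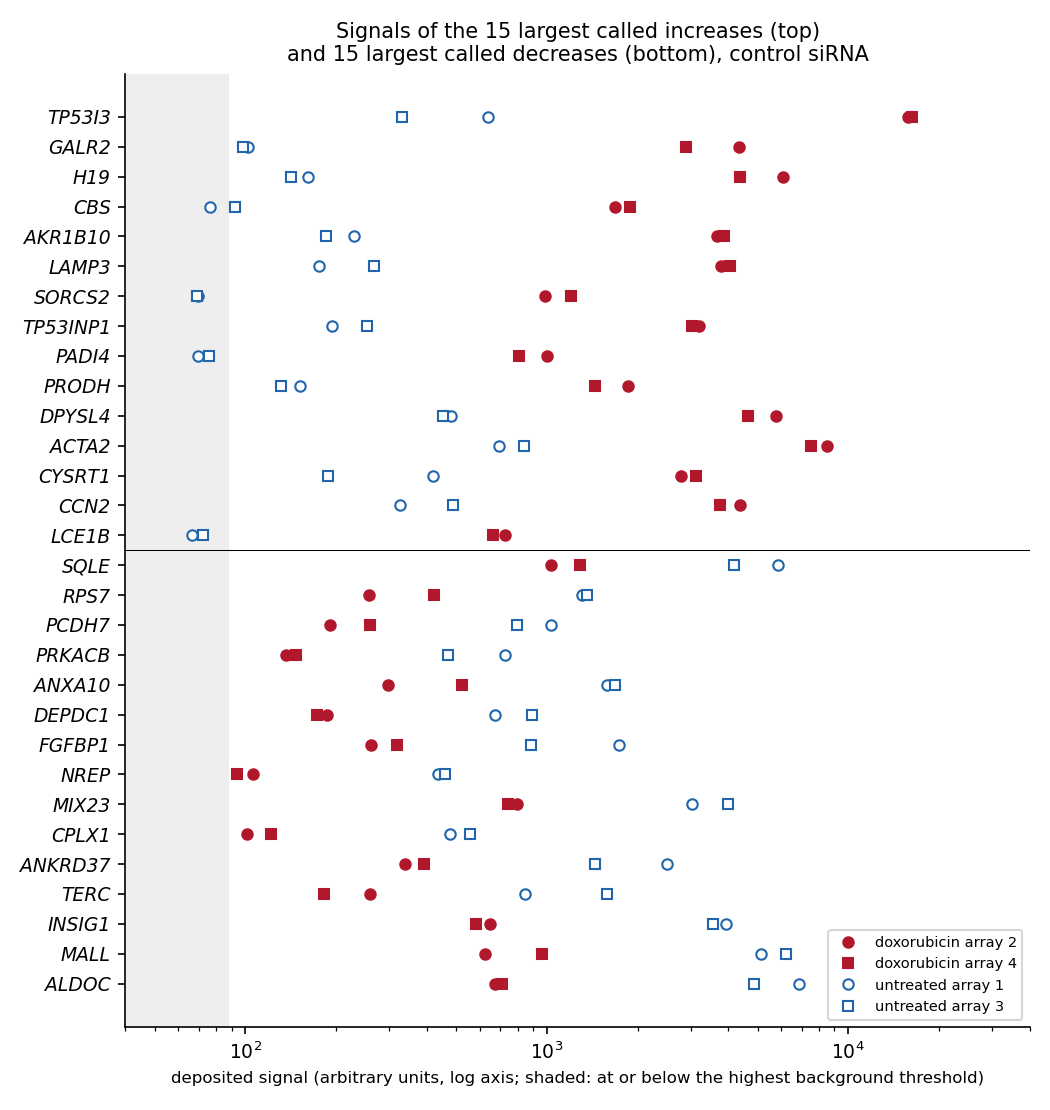
Deposited signals on a log axis of the 15 named genes with the largest called rise and the 15 with the largest called fall, with filled red points for the doxorubicin arrays and open blue points for the untreated arrays. In all 30 genes the doxorubicin points lie on 1 side of the untreated points, as in every called feature, and SORCS2, PADI4 and LCE1B sit inside the shaded background range when untreated.

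A set of genes crossed the background threshold only with the drug. Of the features called higher, 165 were below background on both untreated arrays and above it on both doxorubicin arrays, so that their rise has only a lower bound. The bound is the mean on the doxorubicin arrays over the dimmest signal above background, and it leaves the spread of a silent gene unmeasured. SORCS2, a sorting receptor of neurons, read 989.7 and 1204 with doxorubicin, against 69.4 and 69.3 untreated, at least 12.4-fold higher with doxorubicin (adjusted p = 0.00163). PADI4, which turns arginine in histones into citrulline, read 998 and 806 units with doxorubicin and 69.4 and 75.5 untreated, at least 10.2-fold higher, with the smallest adjusted p of any gene named here (0.000268). LCE1B, a protein of the cornified envelope of skin, read 727 and 661 on the doxorubicin arrays, against 66.4 and 72.3 on the untreated arrays, at least 7.85-fold higher. GABBR2, a subunit of the GABA-B receptor, rose at least 7.31-fold, KLHL30 at least 6.14-fold, TEX14, a protein of germ cell bridges, at least 4.65-fold, and SNAI2, a repressor of epithelial genes, at least 4.47-fold. ABCA12, the lipid carrier of keratinocytes, rose at least 4.1-fold, the phospholipase gene PLA2G4D at least 4.05-fold, the globin gene CYGB at least 3.54-fold, and LGALS7, a galectin of squamous epithelium, at least 3.26-fold. Genes that dropped below background were fewer, at 30, and closer to it at the start. LRP1B, a very large receptor of the LDL receptor family, read 75.3 and 84.5 with doxorubicin, against 224 and 150.5 untreated, at least 2.26-fold lower with doxorubicin. DMRT1, a transcription factor of the testis, read 70.1 and 69.2 units with doxorubicin and 222 and 141 untreated, at least 2.18-fold lower, and FHIT, a dinucleotide hydrolase at a fragile site, read 63.3 and 79.9 on the doxorubicin arrays, against 137 and 118 on the untreated arrays, at least 1.56-fold lower.

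Among the other large rises were genes of several tissues. The matrix and muscle genes ACTA2 (smooth muscle actin) and CCN2 (connective tissue growth factor) had log2 changes of 3.32 ± 0.33 (SE) and 3.28 ± 0.34 (SE). ACHE, acetylcholinesterase, read 807 and 711 with doxorubicin, against 93.2 and 75 untreated. PRODH, the p53-regulated proline dehydrogenase, read 1866 and 1447 units with doxorubicin and 152 and 131 untreated, and SERPINB5, the p53-regulated serpin maspin, read 5625 and 6335 on the doxorubicin arrays, against 657 and 919 on the untreated arrays. The lack of overlap in these 5 genes follows from their choice among called genes, none of which had overlapping groups. DPYSL4, SLC4A11, HES2, FAM210B, GALNT5 and FBXO2 rose by 2.75 to 3.39 on the log2 scale.

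The 4 lists of p53 genes had larger shares of members called higher than the other lists examined with 14 or more genes tested. Over the 4 lists, with each gene counted once, 51 of 75 genes tested were called higher and 4 lower, where 9.08% and 8% of all features were, and the median log2 change was 1.21, against -0.02 over all features; 13 of the 51 were called whichever array was left out. The feedback genes of p53 responded: PPM1D, the phosphatase that switches the damage signal off, read 4099 and 3691 with doxorubicin, against 637 and 840.5 untreated (log2 change 2.33 ± 0.24 (SE), adjusted p = 0.00154). MDM2, the ubiquitin ligase that destroys p53, read 163 and 201 units with doxorubicin and 83.1 and 87.9 untreated, close to background when untreated (log2 change 0.98 ± 0.18 (SE), adjusted p = 0.00852). TP53INP1, which helps p53 to start cell death and autophagy, read 3209.9 and 3043 on the doxorubicin arrays, against 193 and 252 on the untreated arrays (log2 change 3.74). The core and feedback list had 6 of 14 members higher and 1, the kinase gene CHEK2 (-1.03), lower; without each array the count of higher members was 2, 3, 3 and 5.

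Of 21 p53 targets of arrest, 14 were higher and 1 lower, with a median log2 change of 1.10, and 3, 7, 8 and 10 of them were higher without each array in turn. CDKN1A read 28392 and 31799.9 with doxorubicin, against 6982 and 6102 untreated (log2 change 2.28 ± 0.21 (SE), limma adjusted p = 0.00153). It was among the brightest genes before the drug. A second CDKN1A probe changed by 0.72. SFN, the 14-3-3 protein that holds cells before mitosis, read 18807 and 20866 units with doxorubicin and 4428 and 4678 untreated (log2 change 2.18). The sestrin genes, whose products restrain mTORC1, rose together: SESN1 read 2866 and 2442 on the doxorubicin arrays, against 411 and 378 on the untreated arrays, and SESN2, below background on both untreated arrays, was at least 3.05-fold higher. PLK2 and GADD45A rose by 1.5 and 1.37 on the log2 scale. The listed gene that fell was CDKN2A, which encodes p16 and ARF and is not known as a gene that p53 raises. It read 146 and 172 with doxorubicin, against 351 and 352 untreated (log2 change -1.26).

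Of 21 p53 targets of death, 17 were higher and 0 lower (median log2 change 1.49), and 7, 9, 12 and 15 were higher without each array in turn. CDIP1, a p53 effector upstream of TNF signalling, read 666 and 492 units with doxorubicin and 77.8 and 90.6 untreated. PHLDA3, which blocks AKT at the membrane, read 1145 and 1270.3 on the doxorubicin arrays, against 383 and 306 on the untreated arrays. EI24, a protein of the endoplasmic reticulum, read 3025 and 3699 with doxorubicin, against 1458 and 1488 untreated. All 3 were called whichever array was left out, as was SCN3B, a sodium channel subunit that was at least 2.61-fold higher from below background. Among death receptors FAS read 257 and 253 units with doxorubicin and 82.2 and 84.3 untreated and TNFRSF10B, a receptor for TRAIL, read 10456 and 9216 on the doxorubicin arrays, against 1979.9 and 3284 on the untreated arrays. APAF1, the scaffold of the apoptosome in the mitochondrial pathway, read 4286 and 3407 with doxorubicin, against 576 and 879 untreated. FAS and CDIP1 were below background on 1 of the 2 untreated arrays. In the list of death receptors, caspases and their inhibitors 5 of 30 were higher and 2 lower, where 9.08% and 8% of all features were, with 0, 2, 2 and 5 higher without each array. In the BCL2 family 3 of 18 rose and 3 fell: BCL2L1, whose main product protects from death, read 13731 and 15754 units with doxorubicin and 7149 and 7172 untreated and the killer PMAIP1 rose by 1.35 on the log2 scale, while HRK, another killer, read 139 and 149.9 on the doxorubicin arrays, against 344 and 339.7 on the untreated arrays. Without each array 1, 1, 2 and 3 BCL2 family members were higher and 0, 2, 2 and 2 lower.

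Of 24 p53 targets of repair and metabolism, 18 were higher and 2 lower (median log2 change 1.43), and 4, 11, 12 and 11 were higher without each array in turn. XPC, which finds bulky DNA lesions, read 4059.9 and 4082 with doxorubicin, against 1236 and 1291 untreated (log2 change 1.59 ± 0.16 (SE)). ANKRA2 read 2954 and 3017 units with doxorubicin and 593 and 646 untreated, and RRM2B, the ribonucleotide reductase subunit that feeds repair outside S phase, read 2529.8 and 2297 on the doxorubicin arrays, against 470 and 401 on the untreated arrays. POLH, the polymerase that copies past damaged bases, read 284 and 319 with doxorubicin, against 114 and 112 untreated. These 4 genes were named for their small p, so close arrays within a treatment and distant groups follow from the choice. The members that fell were LPIN1 (-1.47), which makes diacylglycerol, and CPT1C (-0.96).

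The promoters of 36 p53 targets called higher could be read in RefSeq (GRCh38.p14), from 250 bases before to 50 after the start of the gene. A p53 response element of 20 bases was sought as 2 half-sites of 10 bases without a spacer. The C and G at the core of each half-site were required. At most 2 mismatches were allowed elsewhere, also between that C and G. Such an element was found in 2 of the 36 promoters (5.56%), against 0.211% of the promoters of all named genes tested and 0.271% of all RefSeq promoters. The 2 genes, AEN and GPX1, were picked for this match after their values were seen. In GPX1 a mismatch lies between the C and G of the first half-site. AEN, a nuclease of apoptosis, read 3815 and 3546 units with doxorubicin and 1505 and 1513 untreated (log2 change 1.21), and GPX1, which reduces hydrogen peroxide, read 15355 and 14101 on the doxorubicin arrays, against 4299 and 4218 on the untreated arrays (log2 change 1.79). The stretches printed next end at the base before the start of the gene and show the matched element in capitals, for AEN at chr15:88621190-88621339 (plus strand) and for GPX1 at chr3:49358354-49358560 (minus strand).
AEN: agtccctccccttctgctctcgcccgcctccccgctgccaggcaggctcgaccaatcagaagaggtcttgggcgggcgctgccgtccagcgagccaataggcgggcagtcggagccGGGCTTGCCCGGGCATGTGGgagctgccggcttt
GPX1: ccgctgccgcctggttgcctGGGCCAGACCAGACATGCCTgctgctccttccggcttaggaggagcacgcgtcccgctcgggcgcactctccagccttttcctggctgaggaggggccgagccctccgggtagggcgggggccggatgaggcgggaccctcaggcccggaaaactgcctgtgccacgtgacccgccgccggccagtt
A match describes the letters and not binding, and many p53 elements lie outside such a window.

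Genes of the machinery that senses and repairs breaks were called in small numbers, to be read against the 9.08% of all features called higher and the 8% called lower. In the list of DNA damage signalling, 2 of 28 genes were higher and 5 lower. CHEK1, the kinase that stops replication after damage, read 676 and 686 with doxorubicin, against 1264 and 1536 untreated, and H2AX, the histone that is phosphorylated at breaks, read 316 and 429.7 units with doxorubicin and 937 and 1008 untreated. NBN, a part of the complex that binds broken ends, fell by 1.23 on the log2 scale. Leaving out each array left 0, 0, 2 and 0 of these 5 falls called, and 3 were called on log2 of the deposited signals. In homologous recombination and the Fanconi anaemia pathway 3 of 29 were higher, led by RAD51C, a paralogue of the recombinase (7940.3 and 8330.1 on the doxorubicin arrays, against 2319 and 2880.5 on the untreated arrays), and 1 lower. Nucleotide excision repair had 3 of 23 higher (XPC, DDB2 and ERCC5) and 2 lower, and end joining had 1 of 12 higher and 2 lower, which were the Ku subunits XRCC5 and XRCC6. Mismatch and base excision repair had 2 of 24 higher and 4 lower, among them the glycosylase genes NEIL2 (590.5 and 597 with doxorubicin, against 1225 and 1271 untreated) and NTHL1 (378 and 452 units with doxorubicin and 1256 and 904 untreated). Translesion synthesis had 2 of 11 higher and 0 lower. In these 5 lists of repair genes the counts of higher members without each array were 0, 0, 0 and 3 for recombination, 1, 2, 2 and 3 for nucleotide excision, 0, 0, 1 and 1 for end joining, 0, 0, 0 and 1 for mismatch and base excision, and 1, 1, 1 and 2 for translesion synthesis, while those of lower members were 0 to 3.

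The drug's own target and its handling were also measured. TOP2A, the isoform of dividing cells, read 2765 and 2177 on the doxorubicin arrays, against 1646 and 2791 on the untreated arrays; the groups overlapped and it was not called (log2 change 0.15 ± 0.22 (SE)). TOP2B, the isoform of resting cells, read 919 and 1159 with doxorubicin, against 2234 and 2103 untreated (log2 change -1.16 ± 0.20 (SE), limma adjusted p = 0.00628). It was called lower, but was not called without doxorubicin array 2. It was the 1 of 10 topoisomerase genes and partners that was called, where 17.1% of all features were. Of 17 genes of anthracycline transport and reduction, 5 were higher and 1 lower: AKR1B10, CBR4 (0.94), ABCC5, an efflux pump (1084 and 771 units with doxorubicin and 306 and 396 untreated), XDH and CYB5R3 rose, and ABCC3, another pump, fell (789 and 782 on the doxorubicin arrays, against 2442 and 1289 on the untreated arrays). Of all features 9.08% were higher and 8% lower. Without each array 1, 3, 1 and 4 of the 5 rises were called.

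Genes of mitosis were lower as a group. In the G2/M and mitosis list 0 of 82 members were higher and 18 lower, where 9.08% and 8% of all features were. Both doxorubicin arrays lay below both untreated arrays in 48 of the members, where they did in 33.8% of all features. The median log2 change was -0.44, against -0.02 over all features. CDC20, the activator of the anaphase-promoting complex, read 3903 and 3266 with doxorubicin, against 7891 and 11946 untreated (log2 change -1.44 ± 0.22 (SE), adjusted p = 0.00481). TTK, a kinase of the spindle checkpoint, read 925 and 752 units with doxorubicin and 1453 and 1782 untreated, and DEPDC1, a mitotic protein, read 186 and 174 on the doxorubicin arrays, against 673 and 891 on the untreated arrays. CENPA, the histone of centromeres, read 609 and 536 with doxorubicin, against 915 and 1215 untreated, and HMMR, which helps to build the spindle, read 828 and 595 units with doxorubicin and 1332 and 1780 untreated. In all 5 genes both doxorubicin arrays were the low ones, as in every feature called lower. The count of 18 was 4, 3, 16 and 3 without each array in turn, and CDC20 and TTK were called in every case.

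Promoters of mitotic genes are known for CCAAT boxes and for the element TTTGAA, through which a repressor complex acts downstream of p53 and CDKN1A. All 16 promoters that could be read among the 18 called lower held CCAAT or its reverse ATTGG, and 12 of 16 (75%) held TTTGAA or its reverse TTCAAA, searched on both strands over the same 300 bases. The shares were 68.1% and 69.6% over the 69 readable promoters of the whole list, 37.0% and 9.96% over all named genes tested, and 35.7% and 15.4% over all RefSeq promoters. TTTGAA was about as common over the whole list as among its called members, CCAAT was less common over the whole list, the difference was not tested, and no motif here shows that a factor was bound. The 4 genes shown here had the smallest p among those with both motifs in the 150 bases before the start, which are printed with the motifs in capitals. They lie at chr1:43358831-43358980 (CDC20, plus strand), chr1:68497083-68497232 (DEPDC1, minus strand), chr2:26785906-26786055 (CENPA, plus strand) and chr5:163460482-163460631 (HMMR, plus strand) of GRCh38.p14.
CDC20: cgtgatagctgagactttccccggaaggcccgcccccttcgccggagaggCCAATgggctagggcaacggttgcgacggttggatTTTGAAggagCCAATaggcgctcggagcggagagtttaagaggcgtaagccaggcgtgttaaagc
DEPDC1: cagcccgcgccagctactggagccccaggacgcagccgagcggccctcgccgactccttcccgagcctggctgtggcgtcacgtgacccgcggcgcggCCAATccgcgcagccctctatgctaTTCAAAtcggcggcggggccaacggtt
CENPA: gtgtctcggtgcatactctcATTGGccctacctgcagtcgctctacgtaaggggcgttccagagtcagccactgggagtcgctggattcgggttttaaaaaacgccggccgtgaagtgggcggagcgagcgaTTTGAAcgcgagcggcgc
HMMR: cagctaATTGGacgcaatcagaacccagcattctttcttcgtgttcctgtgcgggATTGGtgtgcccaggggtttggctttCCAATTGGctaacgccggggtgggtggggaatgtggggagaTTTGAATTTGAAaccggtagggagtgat

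Genes of the earlier cycle were called in both directions. Of 52 DNA replication genes 6 were higher and 3 lower, near the 9.08% and 8% of all features: RRM1, a subunit of ribonucleotide reductase, read 12362 and 9990 on the doxorubicin arrays, against 5220.1 and 5943 on the untreated arrays, the clamp gene PCNA read 15419.6 and 15196 with doxorubicin, against 6675 and 8461 untreated, and TK1, thymidine kinase, read 10203 and 7869 units with doxorubicin and 3526 and 4800.2 untreated. DCK, another kinase of nucleosides, read 333 and 364 on the doxorubicin arrays, against 714 and 561 on the untreated arrays. Of 31 G1/S genes 6 were higher and 3 lower. CDKN2B, the inhibitor p15, read 855 and 677 with doxorubicin, against 252 and 221 untreated, and E2F7, a repressor of E2F targets that p53 raises, read 2285 and 1679 units with doxorubicin and 203 and 579 untreated; RB1 rose by 0.86 on the log2 scale. SKP2, which marks the CDKN1B inhibitor for destruction, read 862 and 873 on the doxorubicin arrays, against 2521 and 2506 on the untreated arrays. Higher members numbered 0, 1, 1 and 4 in replication and 1, 2, 1 and 8 in G1/S without each array. Of 16 replication-dependent histone genes, whose RNA mostly lacks the poly(A) tail that the priming needs, 4 were higher, led by H2BC5 (3408 and 3822 with doxorubicin, against 1459.8 and 703 untreated), with 0, 0, 5 and 0 without each array and 2 on log2 of the deposited signals.

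The synthesis of cholesterol had the largest share of lower members of the lists with 14 or more genes tested. Of 35 genes 15 were lower and 1 higher, where 8% and 9.08% of all features were. The median log2 change was -0.51, and 7, 8, 7 and 14 were lower without each array. SQLE, which makes squalene epoxide, read 1031 and 1288 units with doxorubicin and 5826 and 4166 untreated, and DHCR7, which takes the last step to cholesterol, read 659 and 605 on the doxorubicin arrays, against 2733 and 2102 on the untreated arrays. INSIG1, the sensor that holds the SREBP activators of the pathway back, read 646 and 582 with doxorubicin, against 3919 and 3565 untreated (log2 change -2.66 ± 0.30 (SE), adjusted p = 0.00165). MVD and EBP fell by 1.35 and 1.03 on the log2 scale. These 5 genes and LPIN1 were called whichever array was left out. ABCA1, the pump that carries cholesterol out of the cell, was the member that rose, named after its value was seen, at 647 and 631 units with doxorubicin and 133 and 99.6 untreated (log2 change 2.37 ± 0.41 (SE), adjusted p = 0.00666). The readable promoters of the lower members held CCAAT in 10 of 14 cases (71.4%) and the sterol element letters TCACNCCAC in 0 of 14, against 37.0% and 1.02% of all named genes tested. Over the 32 readable promoters of the whole list the shares were 62.5% and 3.12%, so CCAAT was common in the list as a whole. At a share as low as 1.02%, 0 of 14 does not set the lower members apart, and no difference was tested. In fatty acid synthesis 4 of 25 were lower and 3 higher. SCD, which makes monounsaturated fatty acids and is also driven by SREBP, read 4989 and 4934 on the doxorubicin arrays, against 19968 and 22572 on the untreated arrays (log2 change -2.03 ± 0.21 (SE)); ACSL5, which activates fatty acids, read 775 and 914 with doxorubicin, against 1615 and 1882 untreated, and DGAT1, which makes triglycerides, read 1659.9 and 1476 units with doxorubicin and 567 and 600.5 untreated and rose. Without each array 1, 2, 2 and 2 of that list were lower, and 0, 0, 1 and 0 higher.

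Genes of glycolysis and of the response to low oxygen were lower in part. In glycolysis 7 of 27 were lower and 0 higher (median log2 change -0.32), with 1, 3, 2 and 4 lower without each array and 3 on log2 of the deposited signals. ALDOC, an aldolase, read 675 and 710.3 on the doxorubicin arrays, against 6868 and 4863 on the untreated arrays, the largest fall of any named gene (log2 change -3.09 ± 0.24 (SE), adjusted p = 0.00112). HK2, the hexokinase of tumours, read 398 and 519.8 with doxorubicin, against 1743 and 999 untreated, and PDK3, a kinase that inhibits pyruvate dehydrogenase, read 413 and 439 units with doxorubicin and 758 and 816 untreated. In the hypoxia list 8 of 31 were lower and 1 higher, with 0, 5, 4 and 7 lower without each array. EGLN1, the oxygen sensor, read 168 and 198 on the doxorubicin arrays, against 403 and 372 on the untreated arrays, ANKRD37 read 338 and 392 with doxorubicin, against 2504 and 1441 untreated and ERO1A, an oxidase of the endoplasmic reticulum, read 572 and 602 units with doxorubicin and 1281 and 1051 untreated. The hypoxia gene that rose was P4HA2, a collagen hydroxylase that p53 is also known to raise (3234 and 2786 on the doxorubicin arrays, against 784 and 1118 on the untreated arrays). In oxidative phosphorylation 7 of 67 were lower and 0 higher (10.4%, near the 8% of all features), the median was -0.06, and 0, 1, 1 and 0 were lower without each array. ATP5MC2, a subunit of ATP synthase, had the largest fall of them (889 and 1267 with doxorubicin, against 2143 and 3713 untreated).

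Amino acid and protein synthesis genes were lower in part. Among ATF4 targets 4 of 31 rose and 6 fell. CBS and CTH, which follow each other in making cysteine, went apart: CTH read 131 and 156 units with doxorubicin and 325 and 321 untreated and fell (-1.27 ± 0.25 (SE), adjusted p = 0.0111). PYCR1, which makes proline, read 500.3 and 605 on the doxorubicin arrays, against 1242 and 1637 on the untreated arrays, opposite to the proline-burning PRODH. ATF5, a stress transcription factor, read 1237 and 1126 with doxorubicin, against 329.7 and 484 untreated and rose, and XPOT, the exporter of tRNA, read 227 and 210 units with doxorubicin and 465 and 467 untreated and fell. Of 18 tRNA synthetase genes 5 were lower and 1, SARS1 (0.97), higher. GARS1 read 2036 and 1903 on the doxorubicin arrays, against 3991 and 4226 on the untreated arrays. Of 21 genes of transsulfuration and polyamines 2 rose and 2 fell, also about the rate of all features (9.08% and 8%). The counts of lower members without each array were 0, 2, 2 and 3 for ATF4 targets, 0, 0, 1 and 1 for synthetases and 0, 0, 0 and 0 for transsulfuration, and those of higher members 1, 3, 3 and 3, 0, 0, 0 and 0, and 1, 2, 1 and 1.

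The ribosome and the splicing machinery had larger shares of lower members than the 8% of all features. In ribosome biogenesis 15 of 61 were lower and 1 higher (median log2 change -0.35): NHP2, of the RNA-modifying particles, read 1535 and 1729.6 with doxorubicin, against 3102 and 3730.3 untreated, and FBL, which methylates ribosomal RNA, read 2936 and 2978 units with doxorubicin and 5506 and 6426 untreated. Of 68 ribosomal protein genes 13 were lower and 1, RPL34, higher (median -0.29). RPS7 read 258 and 422 on the doxorubicin arrays, against 1304 and 1360.3 on the untreated arrays, RPS21 read 1612 and 2049 with doxorubicin, against 4401 and 5120.4 untreated and RPL29 read 937 and 1189 units with doxorubicin and 2514 and 2412 untreated; these families have many near-identical pseudogenes, so a probe may read more than its gene. RPL9 had probes called in opposite directions. Of 51 splicing factor genes 17 were lower and 1 higher (median -0.39). HNRNPD, which binds AU-rich RNA, read 6571 and 7111 on the doxorubicin arrays, against 19802 and 20787 on the untreated arrays (log2 change -1.5 ± 0.18 (SE)), and SRSF2 and SRSF3, both SR proteins, fell by 1.02 and 1.0 on the log2 scale. The 3 counts of lower members were 0, 6, 4 and 9, 0, 7, 9 and 6, and 1, 6, 6 and 7 without each array, and the splicing count was 10 on log2 of the deposited signals. Chaperones had 7 of 35 lower, with FKBP4 (1019 and 1231 with doxorubicin, against 2019.6 and 2418 untreated) first among them, and 1 higher, HSPB8, a small heat shock protein of autophagy (625 and 629 units with doxorubicin and 129 and 165 untreated); 0, 1, 2 and 1 were lower without each array. Of 33 proteasome genes 3 were lower (9.09%, near the 8% of all features) and 1 higher. Of 23 genes of unfolded proteins 2, ERO1B and SYVN1, were higher (8.7%, near the 9.08% of all features) and 0 lower.

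The TFIID subunits, to which TAF3 belongs, did not pass the threshold. None of 15 TFIID subunits tested was called by limma, and the smallest adjusted p was 0.0706, for TAF6 (259 and 237 on the doxorubicin arrays, against 347 and 301 on the untreated arrays), while 2 of the 15 had an unadjusted p under 0.05. TAF3, the target of the other siRNA, read 89.3 and 101 with doxorubicin, against 78.1 and 81.4 untreated, close to background in both groups. Among RNA polymerase II, the other general factors and Mediator 7 of 45 were higher and 4 lower, where 9.08% and 8% of all features were. POLR2A, the catalytic subunit, read 10408 and 7897 units with doxorubicin and 3579 and 3839 untreated (log2 change 1.29 ± 0.22 (SE)), and MED30 read 867 and 877 on the doxorubicin arrays, against 2083 and 2283 on the untreated arrays (log2 change -1.42 ± 0.18 (SE)). Without each array 0, 1, 1 and 3 of these were higher and 1, 2, 1 and 1 lower.

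Of 55 lysosomal and autophagy genes 11 were higher and 4 lower, with a median log2 change of 0.36, and 2, 4, 7 and 7 were higher without each array. Beside LAMP3, FUCA1, which removes fucose, read 8552 and 5278 with doxorubicin, against 1705 and 1353 untreated, PSAP, the precursor of sphingolipid activators, read 14611 and 14208 units with doxorubicin and 7107 and 8198 untreated, and DRAM1, a p53 target of autophagy, read 1274 and 1788 on the doxorubicin arrays, against 472 and 567 on the untreated arrays. ATP6V0D1, of the proton pump, rose by 1.15 on the log2 scale, and ATG4C fell by 0.93. Among NRF2 targets 3 of 35 rose and 3 fell, which is about the rate of all features (9.08% and 8%), with AKR1B10 among those that rose and the reductase genes TXNRD1 (-0.71) and GSR (-0.56) among those that fell. Without each array 1, 1, 1 and 1 of them were higher and 0, 0, 0 and 1 lower. Of 17 iron genes 2 were higher, also near the 9.08% of all features. They were NCOA4, the receptor for ferritin in autophagy (13434 and 13538 with doxorubicin, against 6514 and 5956 untreated), and ISCU, an iron-sulfur scaffold (6404 and 7478 units with doxorubicin and 2978 and 2834 untreated).

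Adhesion, matrix and signalling genes rose in several lists, to be read against the 9.08% of all features called higher and the 8% called lower. Of 29 YAP and TGF-beta targets 9 were higher and 1 lower (median log2 change 0.34): beside ACTA2 and CCN2, F3, tissue factor, read 3288 and 3722 on the doxorubicin arrays, against 924 and 849 on the untreated arrays, AJUBA read 516 and 765 with doxorubicin, against 206 and 119 untreated and CCN1 read 4985 and 4415 units with doxorubicin and 1598 and 1120.3 untreated, while ID1, an inhibitor of differentiation, read 1698 and 1590.4 on the doxorubicin arrays, against 4004 and 6355 on the untreated arrays and fell. Without each array 4, 5, 7 and 6 of them were higher. Of 29 integrin, laminin and cytoskeleton genes 7 were higher and 1 lower (median 0.49), with LAMB3, a chain of epithelial laminin, at 824 and 1029 with doxorubicin, against 363 and 301 untreated and PLEC, which ties filaments to membranes, at 1741 and 1490.3 units with doxorubicin and 656 and 770.2 untreated. Of 34 keratin and junction genes 6 were higher and 0 lower: KRT20, a keratin of mature intestinal cells, read 288 and 329.8 on the doxorubicin arrays, against 104 and 87.9 on the untreated arrays, and PERP, a p53 target of desmosomes, read 1509 and 1928 with doxorubicin, against 741 and 709 untreated. KRT80 read 4617 and 4312 units with doxorubicin and 1674 and 241 untreated; its untreated arrays differed widely. In the Notch pathway 8 of 29 were higher and 0 lower, although the median was 0.15. All 3 fringe genes, whose enzymes add sugar to Notch, rose: MFNG read 573 and 481 on the doxorubicin arrays, against 158 and 166 on the untreated arrays, LFNG read 1128 and 1220.3 with doxorubicin, against 379.8 and 461 untreated and RFNG read 824 and 1094 units with doxorubicin and 219.6 and 221 untreated, and NOTCH1 read 1116 and 1075 on the doxorubicin arrays, against 394 and 527 on the untreated arrays. The counts of higher members without each array were 0, 1, 3 and 3 for integrins, 1, 0, 5 and 3 for keratins and 0, 1, 1 and 3 for Notch. Wnt targets had 3 of 23 higher and 3 lower, not far from the shares of all features, and without each array 0, 1, 1 and 2 were called each way. Among them NKD2, an inhibitor, was higher (4847 and 4870.2 with doxorubicin, against 1612 and 1805 untreated). TCF7L2, the pathway's factor, was lower (167 and 199.7 units with doxorubicin and 365 and 362 untreated). Of 20 tubulin genes and cofactors 2 were higher, near the share of all features, and 6 lower. TUBB read 3627 and 3965 on the doxorubicin arrays, against 8326 and 14029.6 on the untreated arrays, and TUBA4A 5051 and 3787 with doxorubicin, against 1728 and 1752 untreated. Without each array 0, 3, 2 and 2 of the tubulin list were lower.

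Interferon and antigen presentation genes were called higher at about the rate of all features, and 0 of them were called lower by limma. The lists here are to be read against the 9.08% of all features called higher and the 8% called lower. Of 40 interferon-stimulated genes 4 were higher. TAP1, the peptide transporter of antigen presentation and a p53 target, read 10347 and 9473 units with doxorubicin and 1962 and 1775 untreated (log2 change 2.37 ± 0.34 (SE)), and ISG15 read 10954 and 10693 on the doxorubicin arrays, against 5627 and 2744 on the untreated arrays, with untreated arrays far apart. In antigen presentation TAP1 and HLA-B were the 2 of 22 that rose. NF-kB targets had 3 of 25 higher and 1 lower, and the senescence secretome 4 of 24 higher and 1 lower, with GDF15, a stress cytokine and p53 target, higher at 38027 and 34035 with doxorubicin, against 17917 and 8730 untreated and PLAUR, the urokinase receptor, lower at 612 and 562 units with doxorubicin and 1303 and 1026 untreated. Immediate early genes went both ways, 4 of 35 higher and 6 lower. No fall among these 6 kept its call in every fit that left an array out. ATF3, a stress factor, read 4049.8 and 3625 on the doxorubicin arrays, against 947 and 836 on the untreated arrays and was called whichever array was left out, whereas IER2 read 181 and 172 with doxorubicin, against 305 and 285 untreated and ZFP36, which destroys unstable mRNAs, read 1343 and 1179.9 units with doxorubicin and 2162 and 2112 untreated. Without each array 0 to 4 interferon genes, 0 to 1 NF-kB targets, 0 to 2 secretome genes and 1 to 3 immediate early genes were higher, and without untreated array 3 alone 5 interferon genes were lower. Among 15 imprinted genes H19 rose, IGF2, its neighbour and also named after its value was seen, read 158 and 108 on the doxorubicin arrays, against 76.7 and 74.5 on the untreated arrays and was not called, and MEST (101 and 118 with doxorubicin, against 287 and 308 untreated), PEG10 and SGCE fell.

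Of the markers of other cells, ITGAM rose at least 2.44-fold (222 and 212 units with doxorubicin and 63.5 and 73.7 untreated), PDGFRB at least 1.61-fold (145 and 137 on the doxorubicin arrays, against 73.1 and 74.7 on the untreated arrays) and CD14 by 0.61 on the log2 scale, and CD68 fell (444 and 476 with doxorubicin, against 1084 and 1089 untreated). PTPRC, the common marker of blood cells, and the fibroblast genes COL1A2, COL3A1, DCN and LUM were not detected on enough arrays to be tested, and CD68 had the highest signal among these markers on the untreated arrays. Their part in the rises of matrix and immune genes was not tested.

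**Figure D4:**
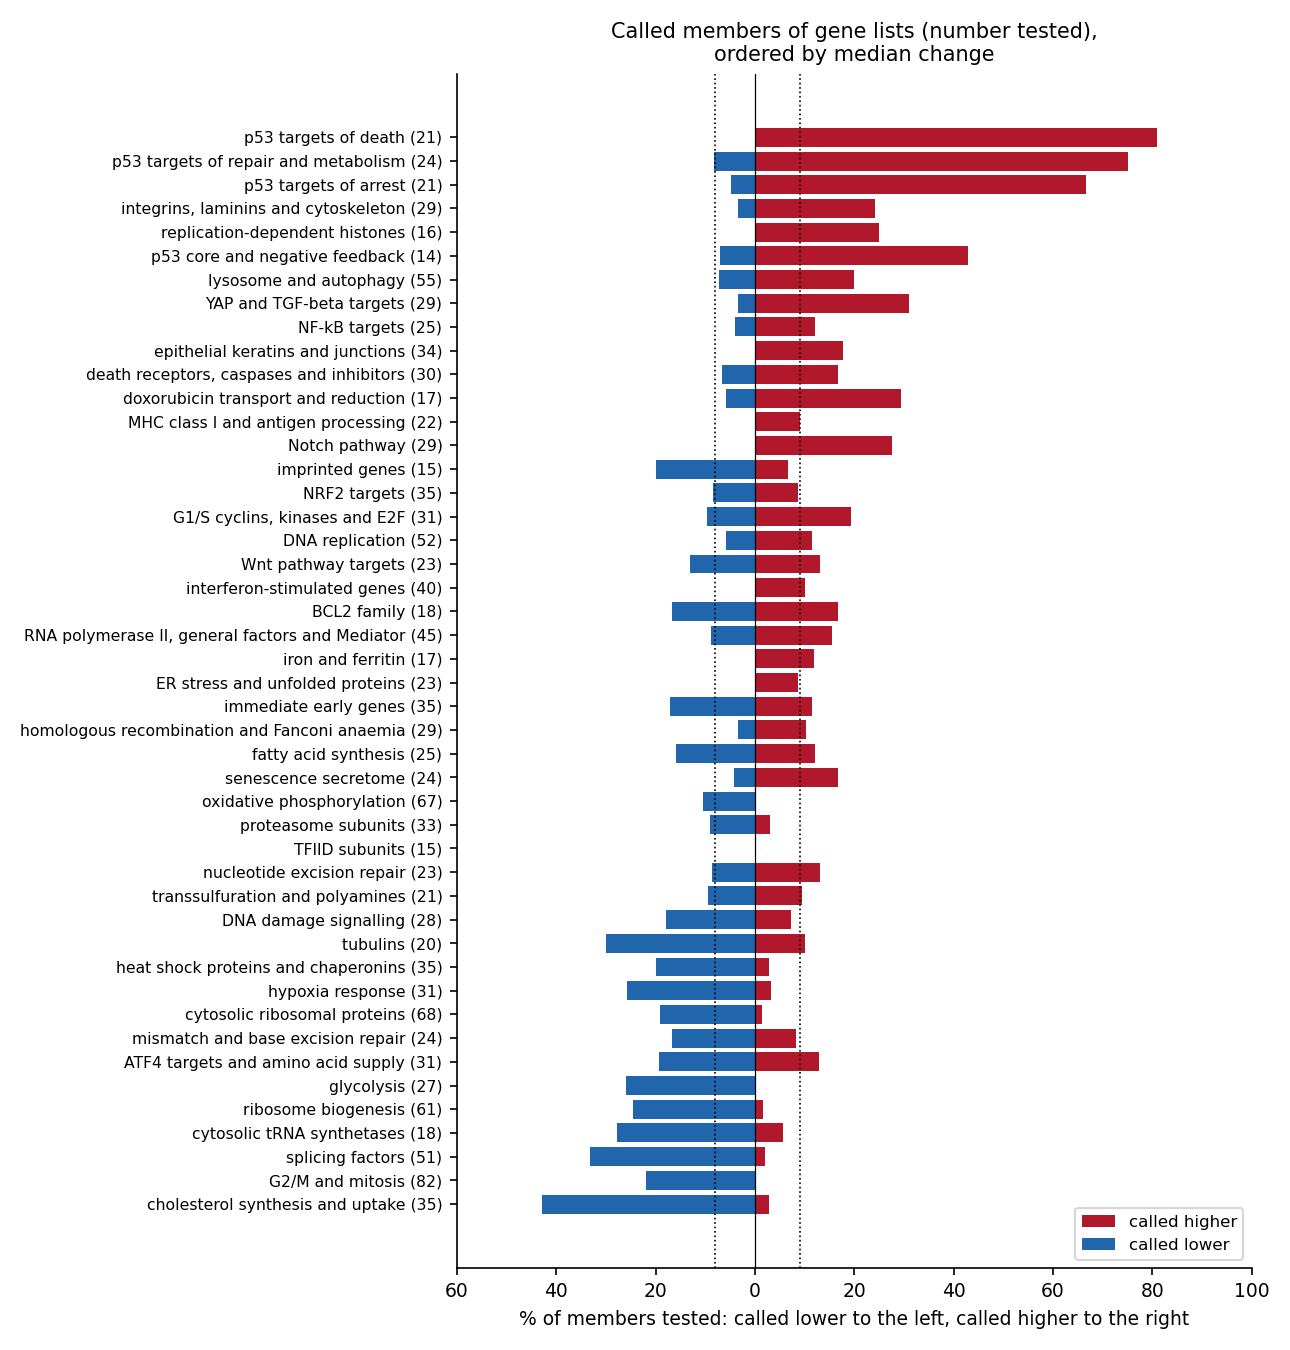
For each gene list with 14 or more genes tested, the red bar gives the percentage of its members called higher and the blue bar the percentage called lower, and the dotted lines mark the 9.08% and 8% of all features. The p53 targets of death, of repair and metabolism and of arrest reach furthest to the right, and cholesterol synthesis furthest to the left.

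The share of genes called lower was larger among the longest genes than among the shortest with all 8 arrays, but not in every fit that left an array out. The span of each gene from start to end was taken from RefSeq (GRCh38.p14) for 12241 of 12250 named genes. Of 336 genes that span 320 kb or more, 49 (14.6%) were lower and 17 (5.06%) higher, against 233 (8.3%) lower and 294 (10.5%) higher of 2807 genes that span less than 10 kb. The median span was 25.4 kb for genes called higher, 33.2 kb for genes called lower and 28.4 kb for all. The median log2 change of the longest genes was -0.16, and it was -0.217 and -0.217 between doxorubicin array 2 and untreated arrays 1 and 3 and -0.127 and -0.156 between doxorubicin array 4 and the same arrays, against -0.027 to -0.002 for genes under 10 kb. Long genes were also dimmer (median log2 signal 7.34, against 8.73 under 10 kb), and among genes brighter than the median feature 24.4% of the 86 longest and 12.1% of the 1483 shortest were lower. Among these brighter genes 10.5% of the longest and 10.7% of the shortest were higher, so the smaller share of rises among all the longest genes was not seen there. Without doxorubicin array 2 the share called lower was 0.298% of the longest and 0.392% of the shortest genes, and without untreated array 1 it was 2.68% and 2.64%, so that the longest genes did not stand above the shortest. Without doxorubicin array 4 it was 3.57% and 2.57%, and without untreated array 3 it was 6.25% and 3.99%. Under TAF3 siRNA it was 0.893% of the longest and 2.28% of the shortest genes. The largest genes called lower, picked after their values were seen, were CNTNAP2 (121 and 119 with doxorubicin, against 318 and 370.2 untreated), LRP1B and FHIT. This is a description over genes, which are not independent replicates, and the difference between the siRNAs was not tested.

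**Figure D5:**
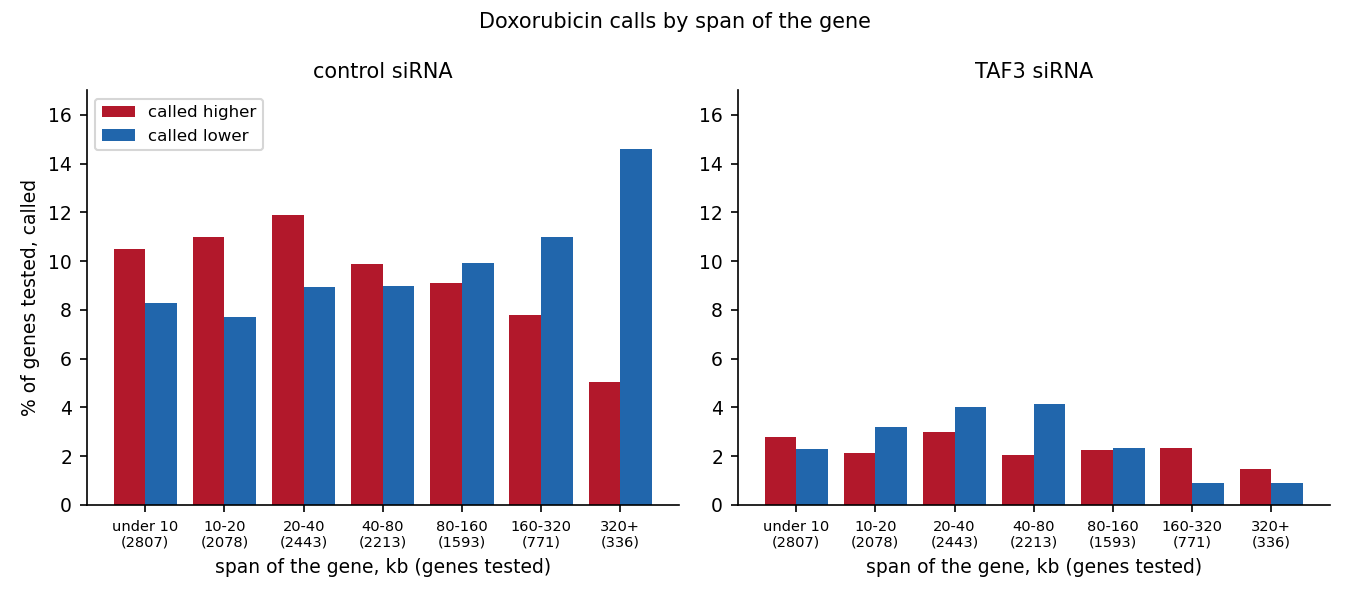
Bars give the percentage of genes called higher and lower with doxorubicin in 7 classes of gene span, for control siRNA (left) and TAF3 siRNA (right), with the number of genes tested in brackets. With control siRNA the share called lower is 8.3% below 10 kb and 14.6% from 320 kb, while the share called higher is 10.5% and 5.06% over all genes of these classes, bright and dim.

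Where the response differed from that of cells with TAF3 siRNA was tested directly, by the difference between the 2 responses in the same fit. It passed the threshold for 6 of 16348 features (0.0367%), while 2424 (14.8%) had an unadjusted p under 0.05. The count was 0 without doxorubicin array 2, doxorubicin array 4, untreated array 3 or TAF3 siRNA doxorubicin array 4, 1 without untreated array 1 or TAF3 siRNA untreated array 3, 252 without TAF3 siRNA untreated array 1 and 324 without TAF3 siRNA doxorubicin array 2. The fit did not use the replicate numbers that the 2 siRNAs share, and with them as a random block 49 features passed. Arrays of the same replicate number had an estimated correlation of 0.09. PADI4 was at least 10.2-fold higher with control siRNA, from below background, and was not called with TAF3 siRNA, where it stayed near background (adjusted p of the difference 0.00883). The log2 change of ALDOC was -3.09 with control siRNA, against -0.08 with TAF3 siRNA, whose untreated arrays already lay below those of control siRNA, at 2248 and 3663 units. The doxorubicin response with TAF3 siRNA passed the threshold for 760 features (4.65%), but a gene called with 1 siRNA and not with the other is not thereby shown to differ.

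Of 3331 named genes with several probes kept, 919 had a probe called, and in 814 of these all probes lay on the same side of 0. AGAP3, RPL9, SLC39A4 and UBE3A had probes called in opposite directions. PPA2 and PCDH7, both among the largest falls, had another probe that was not called.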

How the data were processed

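The probe signals of the series matrix were used, which are intensities on a linear scale, deposited by the authors with a detection value for each probe; BeadStudio is named in the submitters' processing notes, while the version and any further normalization are not given in the sources used. The median signal was 73.9 on every array. Another 8 signal columns name no sample and were not used. The detection p-value was taken as 1 minus the deposited value, which is a fraction from 0 to 1. Signals were background-corrected (normexp, offset 50), quantile normalized and put on the log2 scale. Probes detected at p under 0.05 on at least 2 of 8 arrays were kept (20628 of 48803), and each gene was read through its brightest kept probe, giving 16348 features, of which 12250 were named genes. Of all probes, 28098 had 1 gene symbol in the platform annotation, 13 had several and 20692 were not listed. Group means of all 8 arrays (4 groups) were fitted with lmFit and eBayes of limma 3.58.1 under R 4.3.3, with Benjamini-Hochberg adjustment over all features and a threshold of 0.05. A fold from a group below background is a lower bound. The script was tested on simulated data. The number of arrays limits the precision. The replicate numbers of the treatments do not overlap, so no array of one is paired with an array of the other. What a replicate number marks is not given. Any difference tied to it cannot be told apart from the effect of doxorubicin.

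Named genes were MDM2, CDKN1A, TOP2A and TAF3, the 25 largest called rises and 25 largest called falls, up to 6 called members of each gene list by smallest p (up to 3 members not called where fewer than 3 were), the 12 largest bounds each way, the genes whose response differed between the siRNAs, and genes with probes called in opposite directions. The lists and members were chosen with earlier results of these data known. Alternatives covered background, scaling, the filter, the choice of probe, the model, a replicate block and each array left out.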

Additional observations from a re-analysis of the deposited data

Results flagged for a closer look

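In 6 features the response to doxorubicin with control siRNA differed from that with TAF3 siRNA in a test of the difference itself (limma, adjusted over 16348 features). The differences, given as control siRNA minus TAF3 siRNA on the log2 scale, were 3.35 for PADI4 (adjusted p = 0.00883), and -3.01 for ALDOC, -1.95 for ZFP36, 1.69 for GCHFR, 1.84 for ILMN_1661628 and 1.78 for ILMN_1874901, each with an adjusted p of 0.0471. PADI4 and ILMN_1874901 were below background on both untreated arrays with control siRNA, so their fitted differences are not measured folds; with control siRNA they were at least 10.2-fold and at least 3.47-fold higher with doxorubicin.

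With control siRNA PADI4 read 998 and 806 with doxorubicin, against 69.4 and 75.5 untreated; with TAF3 siRNA it read 97.9 and 75 with doxorubicin, against 79.7 and 68.6 untreated, so that it was above background on both arrays in the doxorubicin group with control siRNA alone. ALDOC read 675 and 710.3 with doxorubicin, against 6868 and 4863 untreated with control siRNA, and 2844 and 1999.6 with doxorubicin, against 2248 and 3663 untreated with TAF3 siRNA. ZFP36, which speeds the decay of unstable mRNAs, fell by 0.84 with control siRNA, at 1343 and 1179.9 with doxorubicin, against 2162 and 2112 untreated, and changed by 1.11 with TAF3 siRNA, at 3610.5 and 3868 with doxorubicin, against 1950 and 1983 untreated. GCHFR, which regulates the first enzyme of tetrahydrobiopterin synthesis, read 358 and 384 with doxorubicin, against 95.8 and 87.6 untreated with control siRNA, and 137 and 119 with doxorubicin, against 108 and 114 untreated with TAF3 siRNA. The probes ILMN_1661628 and ILMN_1874901 carry no gene name here. The first read 336 and 399.7 with doxorubicin, against 86.1 and 82.9 untreated with control siRNA, and 96.3 and 89.3 with doxorubicin, against 84.2 and 80.3 untreated with TAF3 siRNA, and the second 318 and 302 with doxorubicin, against 77.2 and 67.9 untreated with control siRNA, and 78.9 and 83.3 with doxorubicin, against 72.4 and 66.5 untreated with TAF3 siRNA.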

How the results depend on the processing

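The count of features called for the doxorubicin response was 2792 (1484 higher, 1308 lower). Lower calls numbered 835 on log2 of the deposited signals, 865 after median centring and 2022 with array weights. A fit to the 4 control siRNA arrays alone called 4201, of which 2079 were lower. A test against a change of 1.5-fold left 256 (195 higher, 61 lower). With an array left out the counts ranged from 268 to 3423 in all, from 194 to 1760 for higher and from 74 to 1663 for lower. For the difference between the siRNAs, 6 features were called; the count was 1 on log2 of the deposited signals, 1 after median centring, 1 against 1.5-fold, 22 without the filter on dim probes, 0 of 12071 among probes detected on all 8 arrays (limma), 90 with a trended and robust prior, and from 0 to 324 with an array left out. For doxorubicin against untreated no paired analysis was possible, because these groups share no replicate numbers. The control and TAF3 siRNA arrays do share replicate numbers, which the main fit did not use. With the replicate number as a random block, 2801 features were called and the difference between the siRNAs passed for 49. The 4 control siRNA arrays all differ in replicate number, so the block could hardly alter the doxorubicin comparison. The correlation that limma estimated within a replicate number was 0.09. No named gene that was called reversed its direction, although leaving out an array could not have reversed it, because no called feature had overlapping groups. The list medians of unfolded proteins, homologous recombination, immediate early genes and end joining, all near 0, changed sign with the scaling. Of 316 named genes, 218 were no longer called without doxorubicin array 2, 146 without doxorubicin array 4, 137 without untreated array 1, 104 without untreated array 3, 39 on log2 of the deposited signals and 213 against 1.5-fold. The cause of these shifts was not tested. Dim probes near the background threshold limit the size of a measured fold.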

Other observations

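Several gene families outside the lists were looked up after their values were seen, so their counts are descriptions. They are to be read against the 9.08% of all features called higher and the 8% called lower. Of 27 collagen chain genes tested, 11 were higher and 0 lower with doxorubicin, and the median log2 change was 0.55, against -0.02 over all features. COL7A1, the chain of anchoring fibrils under epithelia, read 2223 and 1913 with doxorubicin, against 362 and 484 untreated (log2 change 2.22 ± 0.41 (SE)). Without doxorubicin array 2, doxorubicin array 4, untreated array 1 and untreated array 3, in that order, 1, 3, 3 and 6 collagen genes were higher. Of 13 Wnt ligand genes 5 were higher and 0 lower, with WNT4 at 272 and 208 with doxorubicin, against 99.2 and 67.8 untreated and WNT7A at 279.6 and 271 with doxorubicin, against 85.5 and 110.5 untreated; without the same arrays 0, 2, 2 and 2 were higher. Of 4 late cornified envelope genes 3 were higher, and 0, 1, 1 and 1 without those arrays.

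Of 6 metallothionein genes, whose products bind zinc and copper, 5 were lower and 0 higher (median log2 change -1.15). MT2A read 3469 and 5589 with doxorubicin, against 10834 and 12562 untreated and MT1F read 510.2 and 550.3 with doxorubicin, against 1630.5 and 1085 untreated. Without those arrays 0, 0, 0 and 1 were lower, and these genes are so alike that a probe may read more than 1 of them. Of 78 mitochondrial ribosomal protein genes 2 were higher and 12 lower (median -0.25), and 0, 4, 3 and 2 were lower without those arrays. Of 313 zinc finger genes with a ZNF symbol 33 were higher (10.5%) and 9 lower (2.88%), where all features gave 9.08% and 8%; 2, 9, 9 and 16 were higher without those arrays.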
